A study of Mus musculus with 13 samples.

Results

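The interaction of genotype and 5-fluorouracil (5-FU) is the difference between 2 responses: the 5-FU response of haematopoietic stem cells (HSCs) that lack the kinase MEK1, minus the 5-FU response of wild-type HSCs. It was taken for every gene across all 13 mouse libraries of the series, in 4 groups, and 12846 of the 13201 genes of the deposited table had enough reads to be tested. Every library came from 100 HSCs sorted from bone marrow, whose polyadenylated RNA was copied with Smart-seq2, a method that amplifies whole transcripts from few cells. The groups were untreated wild-type (untreated WT: libraries D1, D2 and D3), untreated MEK1-deficient (untreated KO: D4, D5 and D6), wild-type from mice given 5-FU (5-FU WT: A2, A3, A4 and D4) and MEK1-deficient from mice given 5-FU (5-FU KO: A5, A6 and A8). D4 names an untreated KO library and, separately, a 5-FU WT library. The sources used here do not give strain, alleles, the driver of the deletion, age, sex, 5-FU dose or sampling time. They do not say whether replicate libraries derive from different mice; the p-values thus rest on variation among the libraries at hand, part or all of which may be technical. The series concerns ERK feedback and stem cell exhaustion, by its title, and the interaction asks which genes answered 5-FU differently when MEK1 was missing.

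MEK1, encoded by Map2k1, and its relative MEK2, encoded by Map2k2, sit between RAF kinases and ERK: they phosphorylate the ERK kinases, which then act on transcription factors and on their own upstream inhibitors. 5-FU blocks thymidylate synthesis and is built into RNA; in bone marrow it kills cycling progenitors, after which the spared HSCs divide and later return to quiescence. A fraction of HSCs carries platelet and megakaryocyte transcripts already at the stem cell stage. In a design with 2 genotypes and 2 treatments, a gene with a high genotype difference before treatment and the same difference after it has no interaction, however large that difference is.

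Read totals over the genes of the table ranged from 11416753 to 25380570 in 12 libraries. Untreated WT D1, which the labels place on both flowcells, had 45384866. The series design counts 1 technical replicate in the untreated WT group. Genes with any read numbered 12597, 12615 and 12456 in 5-FU KO, from 11947917 to 13750777 reads. They numbered 12569 in untreated WT D1 and 12093 to 12282 in the remaining libraries. The part of this difference in the interaction, above all for genes at low counts, was not tested. The libraries 5-FU WT A3 and 5-FU WT D4 were near copies: their deposited values correlated across genes at r = 0.988, against 0.912 to 0.943 for the other library pairs within the untreated groups and the 5-FU WT group. The 3 pairs of the 5-FU KO group lay between, at 0.966 to 0.977. Each headline count is therefore given also with A3 and D4 averaged into 1 replicate. All untreated libraries and 5-FU WT D4 carry acquisition dates of 2015, and the other 6 libraries carry 2016, so treatment and year cannot be told apart within the KO genotype. Values are normalized counts, listed in the order of the library names above, and differences are on the log2-like scale of the deposited values, which understates the change of genes with low counts.

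The targeted gene had no called interaction. Map2k1 stood at 905, 1116 and 1766 in untreated WT, 611, 749.8 and 545 in untreated KO, 604, 1634, 584 and 1573 in 5-FU WT and 328, 459.9 and 304 in 5-FU KO. Every KO library lay below the WT libraries of the same treatment, but 5-FU WT A2 and A4 lay within the untreated KO range of 545 to 749.8. By group means Map2k1 was 1.99-fold lower in KO before 5-FU (adjusted p = 0.46) and 3.02-fold lower after it (adjusted p = 0.0339). The interaction of Map2k1 was -0.28 (95% interval -1.13 to 0.58; limma adjusted p = 0.793). For Map2k2 the interval was -0.53 to 0.68 (adjusted p = 0.931), and for Mapk3, which encodes ERK1, -0.65 to 1.19 (adjusted p = 0.818). In all, limma called 0 of 16 tested genes of the ERK cascade, with 2 at an unadjusted p under 0.05 and 0 called by limma-voom, in a table where 365 genes were called (2.84% of those tested).

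Genotype changed the 5-FU response of 365 genes at an adjusted p under 0.05 (limma, Benjamini-Hochberg over all genes tested), and 2139 had an unadjusted p under 0.05. The KO response lay above the WT response in 134 of them (1.04% of genes tested, called higher here) and below it in 231 (1.8%, called lower). With A3 and D4 averaged, 237 genes were called, 79 higher and 158 lower, and 229 of these were among the 365. Among the fits with 1 library left out, the count was lowest without 5-FU KO A6, at 140, and highest without 5-FU WT A2, at 476. It also fell by more than 1.5 times without untreated KO D4 (212), untreated KO D6 (225), 5-FU WT A3 (227), 5-FU WT D4 (198) or 5-FU KO A5 (178). Without both untreated WT D1 and 5-FU WT D4, which leaves 1 flowcell, it was 149. In all, 120 genes were called with every library and in each of the 13 fits with 1 left out, 87 lower and 33 higher. A precision-weighted fit to recovered reads (limma-voom with TMM scaling) called 338 genes in nearly equal parts, 168 higher and 170 lower, against 36.7% higher in the main fit.

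**Figure D1:**
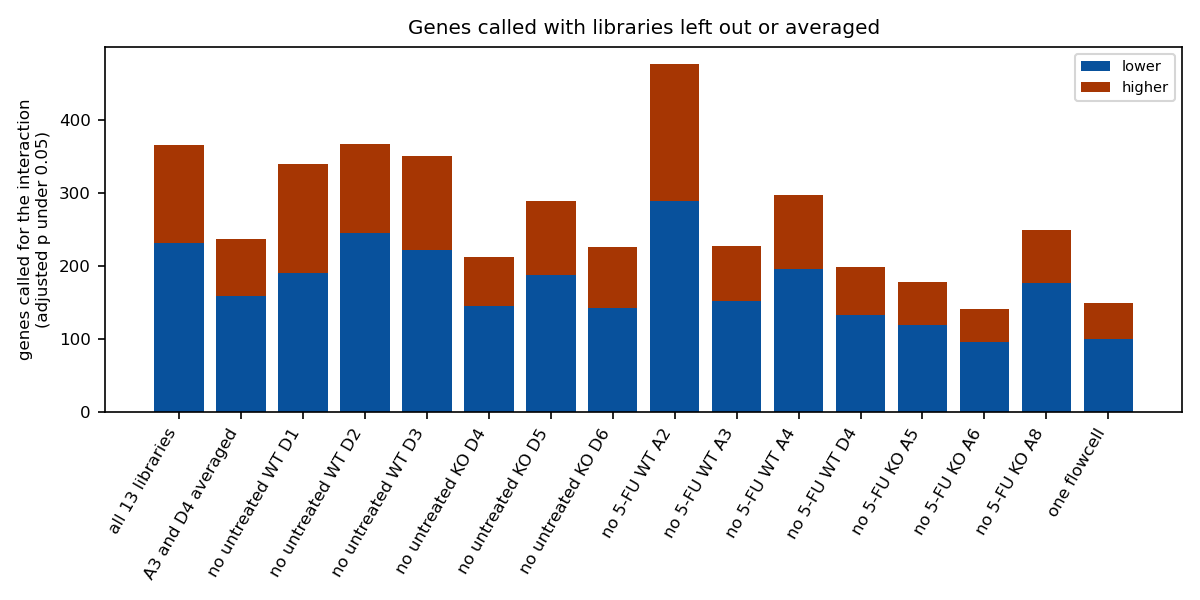
Number of genes called for the interaction (vertical axis, genes with an adjusted p under 0.05) with all 13 libraries, with A3 and D4 averaged, without each library in turn, and on 1 flowcell; blue is lower, brown is higher. The bars run from 140 without 5-FU KO A6 to 476 without 5-FU WT A2, and lower calls outnumber higher calls in each bar.

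Most interaction genes moved in 1 genotype and had no called change in the other. Of the 231 lower genes, 114 rose in WT with no called change in KO, 83 fell in KO with no called change in WT, 10 rose in WT and fell in KO, and 24 were called in neither response alone. Of the 134 higher genes, 67 rose in KO only, 41 fell in WT only, 6 fell in WT and rose in KO, 1 fell in both, and 19 were called in neither response. For comparison, limma called 478 genes up (3.72%) and 380 down (2.96%) in the WT response, and 357 up (2.78%) and 404 down (3.14%) in the KO response. Across the 12846 genes the KO and WT responses correlated at r = 0.239, a description over genes, which are not replicates. Read the other way, the median KO minus WT difference of the 231 lower genes was 0.21 in untreated cells and -1.14 after 5-FU, and that of the 134 higher genes was -0.13 in untreated cells and 0.95 after 5-FU. In 51 of the 365 genes the genotype difference was larger in untreated cells than after 5-FU.

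**Figure D2:**
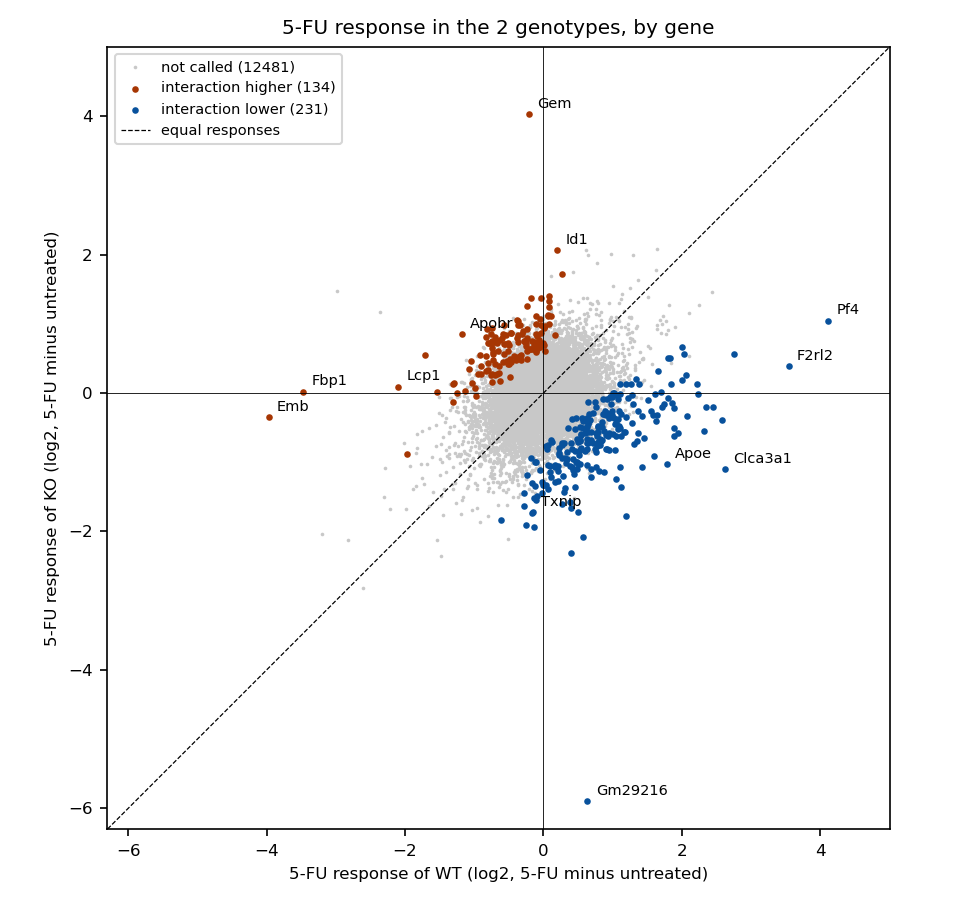
Each dot is 1 gene, placed by its 5-FU response in WT (horizontal axis, log2) and in KO (vertical axis, log2); grey dots are not called, brown dots are higher and blue dots lower for the interaction, and the dashed line marks equal responses. Pf4, F2rl2 and Clca3a1 lie far to the right, Emb and Fbp1 far to the left, Gem high and Gm29216 low.

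Among the called genes, the libraries of 1 group lay apart from all others most often in the groups given 5-FU. In 100 of the lower genes every 5-FU WT library lay above all 9 others, a pattern that 2.48% of all tested genes showed. In 93 of the lower genes every 5-FU KO library lay below all others (3.78% of all tested genes). In 75 of the higher genes every 5-FU KO library lay above all others (4.76%), and in 36 every 5-FU WT library lay below all others (1.44%). The untreated WT libraries lay below all others in 18 called genes (1.25% of all tested genes) and above in 10 (0.996%), and the untreated KO libraries below in 3 (0.638%) and above in 5 (0.669%). Since the interaction is computed from the same values, these counts describe the called genes and are no separate test.

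Genes of megakaryocytes and platelets were the list with the largest share of called genes: most of them rose after 5-FU in WT and none was called up in KO. Of 23 tested genes, 16 were called lower and 0 higher, and the median interaction was -1.61, against -0.01 over all genes tested. Limma called 16 of them up in WT, where the median response was 1.58, and 0 up in KO, where it was -0.26. Limma-voom on the recovered reads gave a median interaction of -2.91 and called 13. With A3 and D4 averaged, 13 were called lower, and without 1 library at least 12. The libraries are bulk samples of 100 cells, so fewer cells with these transcripts and less RNA per cell cannot be told apart. For this list and those below, the shares over all genes tested were 1.04% called higher and 1.8% called lower for the interaction. In the responses they were 3.72% up and 2.96% down in WT, and 2.78% up and 3.14% down in KO.

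The platelet chemokine Pf4 (platelet factor 4, chr5:90772435-90773383 in GRCm38) stood at 729.7, 1360.0 and 1477 in untreated WT and 858, 2335 and 624 in untreated KO. The 5-FU WT libraries held 18815, 26623, 24694 and 36813, and the 5-FU KO libraries 4680.0, 2326 and 1725. The 4 5-FU WT libraries lay above all others, and 1 untreated KO library (D5) lay within the 5-FU KO range. The interaction was -3.07 ± 0.49 (SE), adjusted p = 0.00505. F2rl2, which encodes the thrombin receptor PAR3 (chr13:95696853-95702739), was at 6.86, 112 and 39.1 in untreated WT, 334, 402 and 113 in untreated KO, 2663, 3953, 2964 and 3775 in 5-FU WT and 547, 298 and 477 in 5-FU KO. It rose in WT alone, and its interaction was -3.15 ± 0.36 (SE), adjusted p = 0.000286.

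Platelet receptor subunits and signalling proteins were likewise high in 5-FU WT. Gp1bb, a chain of the receptor for von Willebrand factor, was at 1834, 2225, 2036 and 2592 in 5-FU WT and 253, 143 and 176 in 5-FU KO, from 285 to 425 in untreated WT and 219 to 666 in untreated KO. Its interaction was -2.39 ± 0.32 (SE), adjusted p = 0.0012. Plek, the platelet signalling protein pleckstrin, was at 1774, 2955, 2751 and 2573 in 5-FU WT, 486, 336 and 195 in 5-FU KO and 266 to 972 in the untreated libraries, with an interaction of -2.53 ± 0.35 (SE), adjusted p = 0.00166. Neither gene's 5-FU WT libraries overlapped any other group. Interactions of the fibrinogen receptor subunit Itga2b (-1.90, adjusted p = 0.00871), Vwf itself (-2.02, adjusted p = 0.00886), the ADP receptor P2ry1 (-2.09, adjusted p = 0.0118), the granule transport GTPase Rab27b (-1.89, adjusted p = 0.00957) and the platelet receptor Treml1 (-2.50, adjusted p = 0.00505) were called in each fit with 1 library left out. The call of Gp9 was lost without 5-FU KO A5 (adjusted p = 0.0516). That of Itgb3, the other fibrinogen receptor subunit, was lost without untreated WT D1, untreated WT D2, untreated KO D4, 5-FU WT A4, 5-FU WT D4 or 5-FU KO A6 (adjusted p up to 0.0995). Gp5, Gp1ba and Cd9 were called at adjusted p of 0.0393, 0.0444 and 0.0393. Gp5 lost its call with A3 and D4 averaged (adjusted p = 0.0801) and in all fits without 1 library (adjusted p up to 0.116) except those without untreated WT D2, untreated KO D5, 5-FU WT A2, 5-FU WT A4 or 5-FU KO A8. Gp1ba did so with A3 and D4 averaged (adjusted p = 0.0946) and in all fits without 1 library (adjusted p up to 0.119) except those without untreated WT D3, 5-FU WT A2 or 5-FU KO A8. Cd9 did so with A3 and D4 averaged (adjusted p = 0.0704) and in all fits without 1 library (adjusted p up to 0.11) except those without untreated WT D2, untreated WT D3, 5-FU WT A2 or 5-FU KO A8.

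Genes reported for platelet-biased and aged HSCs share members with that list: 8 of 17 were called lower, 0 higher, with a median interaction of -1.18. With A3 and D4 averaged the count was 8. Limma-voom called 6 of the list, with a median of -2.26. Selp, the adhesion molecule P-selectin, was at 189, 163 and 229 in untreated WT and 944, 365 and 483 in untreated KO, where the groups did not overlap, and at 2094, 3342, 3985 and 3233 in 5-FU WT and 718, 874 and 1474 in 5-FU KO. Its interaction was -2.19 ± 0.36 (SE), adjusted p = 0.0053. Cavin2, a coat protein of caveolae, was at 1603 to 2922 in 5-FU WT and 546 to 631 in 5-FU KO, with an interaction of -2.51 ± 0.40 (SE), adjusted p = 0.00505; its untreated libraries ranged from 296 to 1737 and overlapped both. Clu, a secreted chaperone, had an interaction of -2.50, adjusted p = 0.011.

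Of 14 tested erythroid genes, 4 were lower and 0 higher (median -0.61), namely Mfsd2b, Rhag, Aqp1 and Klf1. By limma-voom the median was -2.50 and 2 were called, without Aqp1 (adjusted p = 0.0731) and Klf1 (adjusted p = 0.146). Mfsd2b, the sphingosine-1-phosphate exporter of red cells and platelets, was at 451, 324 and 102 in untreated WT, 469, 375 and 354 in untreated KO, 2618, 3819, 3051 and 3456 in 5-FU WT and 219, 165 and 349.9 in 5-FU KO. The 5-FU WT libraries stood above all others, and the interaction was -2.97 ± 0.33 (SE), adjusted p = 0.000286. Rhag, a red cell membrane channel, was at 9.47 to 237 in the untreated libraries, 1024, 1992, 1126 and 1613 in 5-FU WT and 2.69, 96.7 and 80.7 in 5-FU KO, and its interaction was -2.86 ± 0.42 (SE), adjusted p = 0.00247. The water channel Aqp1 was at 156 to 649 in the untreated libraries, 1023, 1339, 1189 and 1315 in 5-FU WT and 253, 203 and 85.9 in 5-FU KO (-1.94 ± 0.38 (SE), adjusted p = 0.0127). Heme synthesis enzymes had a median of -0.43 with 0 of 12 called by limma, 2 at an unadjusted p under 0.05 and 0 called by limma-voom.

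Among 13 transcription factors of these lineages, 2 were called lower. Klf1, the factor that switches on red cell genes, was at 402, 20.8 and 155 in untreated WT, 568, 355 and 182 in untreated KO, 1965, 2421, 848 and 2356 in 5-FU WT and 374, 187 and 498 in 5-FU KO (interaction -2.25 ± 0.51 (SE), adjusted p = 0.0256). Its call was lost with A3 and D4 averaged (adjusted p = 0.0534) and without untreated KO D4, 5-FU WT A3, 5-FU WT D4, 5-FU KO A5 or 5-FU KO A6 (adjusted p up to 0.084). Fli1, an ETS factor of megakaryocytes, was at 3640.5, 2541, 2395 and 3144 in 5-FU WT and 1193, 1027 and 762 in 5-FU KO, and the untreated libraries, at 1383 to 2309.8, lay between without overlap. Its interaction was -1.22 ± 0.27 (SE), adjusted p = 0.0256, and the call was lost without untreated KO D5, untreated KO D6, 5-FU WT D4, 5-FU KO A6 or 5-FU KO A8 (adjusted p up to 0.0617). Nfe2, a platelet gene activator, did not pass (-0.88, adjusted p = 0.0604): its 5-FU KO libraries, at 4650.5, 4546 and 6500.1, lay below all others. Limma-voom called Nfe2 (adjusted p = 0.0474) and did not call Fli1 (adjusted p = 0.0606).

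In 16 genes the WT and the KO response were each called, in opposite directions; 10 rose in WT and fell in KO, and 6 did the reverse. The 5 with the smallest interaction p were Apoe, Clca3a1, Apobr, Ctla2a and Glul, and all 16 were called also with A3 and D4 averaged and in each of the 13 fits with 1 library left out. Apoe, the lipid carrier apolipoprotein E (chr7:19696109-19699188), was at 12392, 15087 and 19743 in untreated WT and 15223, 13003 and 15873 in untreated KO. After 5-FU it was at 49903, 60703, 50449 and 55681 in WT, 3.44-fold the untreated mean, and at 7461, 5734 and 7878 in KO, 2.09-fold below it. The untreated groups overlapped, and the 5-FU groups lay apart from them on opposite sides. Its interaction was -2.81 ± 0.22 (SE), adjusted p = 3.51e-06, with a WT response of 1.78 and a KO response of -1.03.

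Clca3a1, a calcium-activated chloride channel regulator on chr3:144729677-144760977, was at 476, 590.3 and 743 in untreated WT, 614, 810.3 and 744 in untreated KO, 4399.6, 6771, 5057 and 6078 in 5-FU WT and 266, 298 and 55.9 in 5-FU KO. It rose 9.25-fold in WT and fell 3.49-fold in KO by group means, and its interaction was -3.72 ± 0.32 (SE), adjusted p = 1.01e-05. Glul, glutamine synthetase, was at 973 to 1344 in the 6 untreated libraries, 2103, 2461, 2282 and 2283 in 5-FU WT and 446, 593 and 778 in 5-FU KO (-1.54 ± 0.24 (SE), adjusted p = 0.00505). Ctla2a, an inhibitor of cathepsin proteases, was at 4287 to 6757 in the untreated libraries, 8682, 10071, 13463 and 11632 in 5-FU WT and 3359, 2910.1 and 3317 in 5-FU KO (-1.53 ± 0.23 (SE), adjusted p = 0.00388). In both, the 5-FU WT and 5-FU KO libraries enclosed the untreated ones without overlap. Clca3a1 and Ctla2a have close relatives beside them in the genome, so reads could have been divided between copies.

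Apobr, the receptor for apolipoprotein B48, moved the other way from low counts. It was at 107, 218 and 204 in untreated WT, 0, 34.3 and 45.5 in untreated KO, 0, 1.45, 0 and 0 in 5-FU WT and 155, 192 and 185 in 5-FU KO, where 3 reads correspond to a normalized count between 0.979 and 4.35. It was near or at 0 in 5-FU WT and within the untreated WT range in 5-FU KO. Its interaction was 2.03 ± 0.27 (SE), adjusted p = 0.0012. The other higher genes of this pattern were Gm16580, Hat1, Gpt2, Snrpa1 and Podxl, and the other lower ones Pdk2, Sla, Creg1, Gm28048, Mx2 and Wbp2.

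A second group of higher genes fell after 5-FU in WT with no called change in KO. Emb, which encodes embigin, an immunoglobulin-family membrane protein on chr13:117208536-117274415, was at 5904, 8046 and 8077 in untreated WT, 4529, 4966 and 4599 in untreated KO, 859.8, 73.9, 82.7 and 54.5 in 5-FU WT and 2471, 5400.4 and 3508 in 5-FU KO. The 5-FU WT libraries were all below the others, with A2 well above its group. Emb fell 27.4-fold in WT, while its KO response was -0.34, adjusted p = 0.672, and the interaction was 3.63 ± 0.51 (SE), adjusted p = 0.00166. It was the only called member of 18 adhesion and homing genes.

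Fbp1, the gluconeogenic enzyme fructose-1,6-bisphosphatase on chr13:62864753-62888282, was at 1966, 2739.8 and 3764 in untreated WT and at 979, 356 and 326 in untreated KO, where the groups did not overlap. After 5-FU it was at 206, 4.35, 1.9 and 1.33 in WT and 501, 485 and 561 in KO. Again A2 stood apart within 5-FU WT, and the KO response was 0.02, adjusted p = 0.982. The interaction was 3.49 ± 0.47 (SE), adjusted p = 0.0012. Lcp1, the actin bundler L-plastin, was at 4808 to 6867 in untreated libraries, 2263, 743, 1313 and 713 in 5-FU WT and 5869, 6214 and 6873 in 5-FU KO (2.19 ± 0.35 (SE), adjusted p = 0.00505). Anxa1, the phospholipid-binding protein annexin A1, was at 1677, 1328, 831 and 1075 in 5-FU WT and 3025, 2705 and 3343 in 5-FU KO, from 3461 to 4973 and 2731 to 3277 in the untreated groups (1.54 ± 0.26 (SE), adjusted p = 0.00634). In both genes the 5-FU WT libraries lay below all others.

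A further group rose after 5-FU in KO. Gem, which encodes a small GTPase of the RGK family on chr4:11704457-11714752, was at 133, 92.6 and 548 in untreated WT, 90.3, 85.8 and 143 in untreated KO, 2013, 5.79, 83.7 and 0 in 5-FU WT and 3879, 7355 and 8658 in 5-FU KO. The 5-FU KO libraries lay above all others, and 5-FU WT spread from no read in D4 to the level of A2. The interaction was 4.25 ± 0.87 (SE), adjusted p = 0.0156, and the call was lost without 5-FU KO A6 (adjusted p = 0.0504). Ranbp1, a partner of the nuclear transport GTPase Ran, was at 3684 to 4428 in untreated libraries, 2908, 3128, 1457 and 3568 in 5-FU WT and 9505, 8752 and 7474 in 5-FU KO (1.55 ± 0.30 (SE), adjusted p = 0.0118). Its 5-FU KO libraries stood above all others and its 5-FU WT libraries below.

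**Figure D3:**
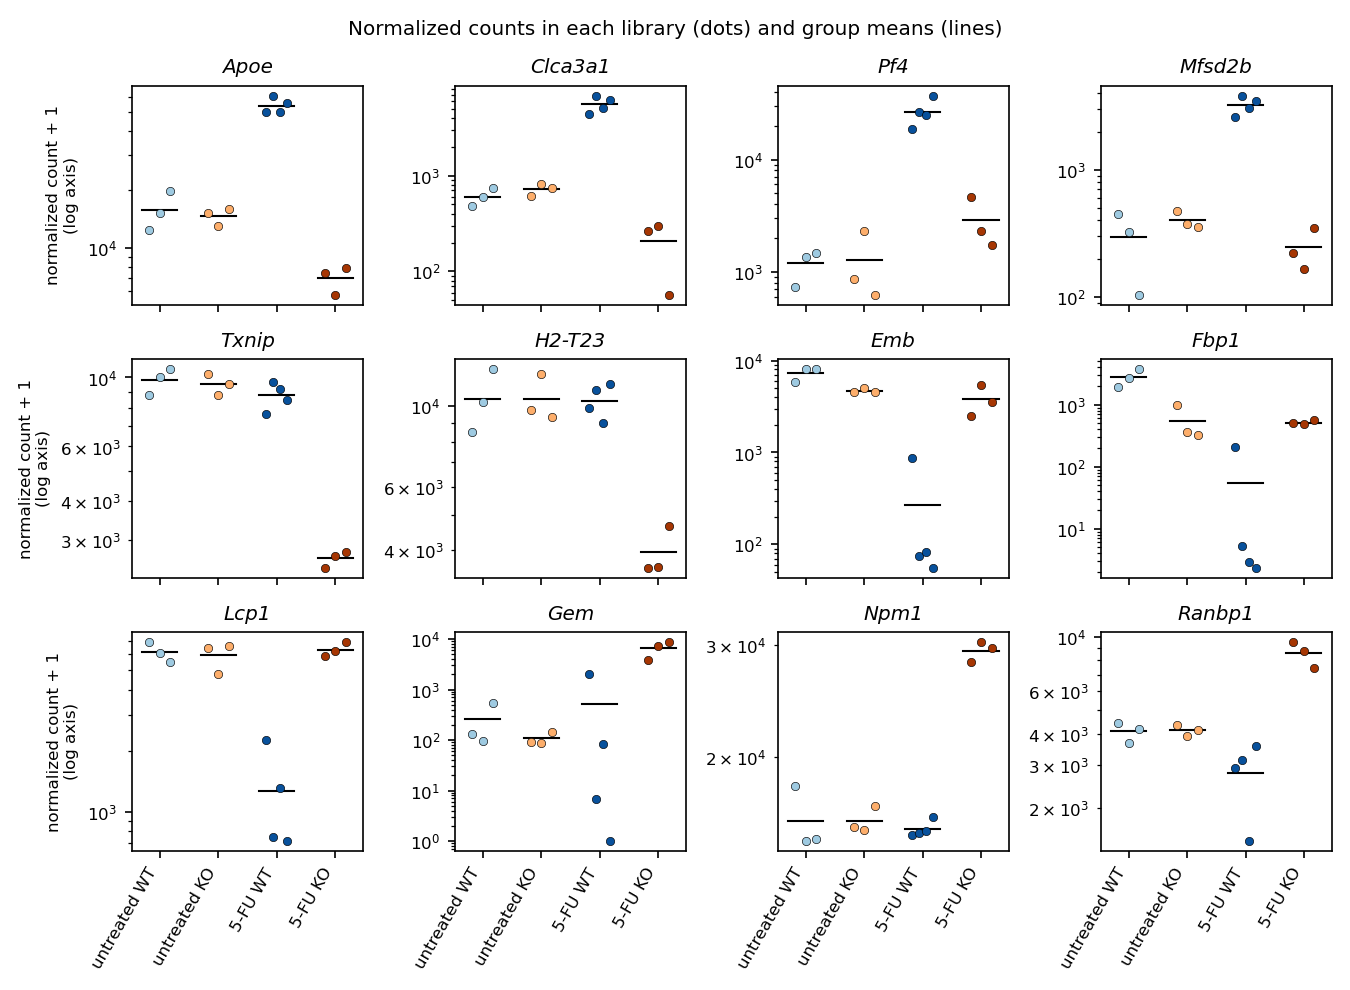
Normalized counts plus 1 (vertical, log axis) of 12 genes in each library (dots) and group means (lines) for untreated WT, untreated KO, 5-FU WT and 5-FU KO. Apoe, Clca3a1, Pf4 and Mfsd2b are high only in 5-FU WT, Txnip and H2-T23 are low only in 5-FU KO, Emb, Fbp1 and Lcp1 are low in 5-FU WT, and Gem, Npm1 and Ranbp1 are high in 5-FU KO.

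In 4 of the remaining higher genes the untreated KO libraries lay below the untreated WT libraries, and the 5-FU KO libraries lay above the untreated KO libraries: Selenot, Podxl, Myo1h and Gm16580. Selenot, a selenoprotein of the endoplasmic reticulum, was at 1070.2, 591 and 477 in untreated WT, 317, 314 and 378 in untreated KO, 286, 269, 288 and 309.5 in 5-FU WT and 1165, 1046 and 656 in 5-FU KO (1.69 ± 0.32 (SE), adjusted p = 0.0107). Podxl, the sialomucin podocalyxin, was at 328, 159 and 126 in untreated WT, 70, 49.1 and 124 in untreated KO, 37, 7.24, 103 and 22.6 in 5-FU WT and 340.0, 316 and 324 in 5-FU KO (1.61 ± 0.32 (SE), adjusted p = 0.0146). Neither gene had a called genotype difference in untreated cells (adjusted p = 0.363 and 0.514). The unconventional myosin Myo1h was at 127 to 230.3 in untreated WT, 1.84 to 50.8 in untreated KO, 8.1 to 90.3 in 5-FU WT and 82 to 196 in 5-FU KO (1.52, adjusted p = 0.0159), and its call was lost without 5-FU KO A6 (adjusted p = 0.0557). Gm16580, a processed pseudogene on chromosome 17 that differs from its closest protein-coding match, Pabpc1, by 30 positions over 1052 aligned bases, so that reads could have been divided between them, was at 126 to 236 in untreated WT, 5.29 to 34.3 in untreated KO, 2.9 to 77 in 5-FU WT and 105 to 175 in 5-FU KO (1.64, adjusted p = 0.00871). Siah2, a ubiquitin ligase, was at 347, 217 and 377 in 5-FU KO, above the 19.6 to 93.7 of untreated KO and 5-FU WT, with untreated WT from 74.1 to 466. Its call (1.73, adjusted p = 0.0197) was lost without 5-FU KO A5 or 5-FU KO A8 (adjusted p up to 0.0587) and by limma-voom (adjusted p = 0.095).

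Genes downstream of ERK had a positive median, with single calls in both directions. Of 23 tested ERK targets and feedback inhibitors, 2 were called higher and 1 lower, with a median interaction of 0.33, or 0.98 by limma-voom. The interaction was positive in 16 and negative in 7, against 6329 and 6517 of all 12846 genes tested. At an unadjusted p under 0.05, 8 were higher and 3 lower. Spred1, an inhibitor of RAS to RAF signalling, was at 895, 857 and 1008 in untreated WT, 243, 405 and 361 in untreated KO, 768, 317, 377 and 320.1 in 5-FU WT and 849, 903 and 575 in 5-FU KO. It was low in untreated KO and in 3 of 4 5-FU WT libraries and otherwise high, with an interaction of 1.49 ± 0.32 (SE), adjusted p = 0.0197. Etv4, a PEA3-family ETS factor, had no read in the 10 libraries outside 5-FU KO and 73.9, 61.3 and 48.1 in 5-FU KO; 0 reads allow a normalized count of up to 0.979 to 4.35, depending on the library. Its interaction was 0.69, adjusted p = 0.0405. Ier3, an immediate-early gene, was at 340.0, 202 and 385 in 5-FU KO, below the 982 to 1878 of all other libraries (-1.33 ± 0.31 (SE), adjusted p = 0.0288). The call of Spred1 was lost without untreated KO D4, 5-FU KO A5 or 5-FU KO A6 (adjusted p up to 0.0727), and that of Ier3 without untreated WT D1, untreated WT D2, untreated KO D6, 5-FU WT D4, 5-FU KO A5 or 5-FU KO A6 (adjusted p up to 0.0957). Etv4 lost its call with A3 and D4 averaged (adjusted p = 0.076) and in all fits without 1 library (adjusted p up to 0.104) except those without 5-FU WT A2. It was also not called by limma-voom (adjusted p = 0.0996).

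Genes of stem cell identity were called lower where they were called at all. Among 33 genes of HSC identity, 5 were called lower and 0 higher (median -0.14); in the KO response 11 fell and in the WT response 8 did. With A3 and D4 averaged, 4 were called lower. The median was -0.28 without untreated WT D2, -0.05 without untreated WT D1, -0.06 without untreated KO D4 and with quantile normalization, and -0.40 by limma-voom. Txnip, an inhibitor of thioredoxin and of glucose uptake that is abundant in quiescent cells, was at 7647 to 10643 in the 10 libraries of the other groups and 2440.1, 2673 and 2749 in 5-FU KO. Its interaction was -1.56 ± 0.18 (SE), adjusted p = 0.000286. Pdzk1ip1, a small membrane protein used as an HSC marker, was at 3011 to 5451 in those 10 libraries and 634, 915 and 1149.9 in 5-FU KO (-1.56 ± 0.27 (SE), adjusted p = 0.0078). In both genes 5-FU KO lay below every other library, and the WT response was not called.

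The junction protein Esam (-1.66, adjusted p = 0.0151) rose in WT only. The HSC sorting marker Slamf1 (CD150) was at 3358, 4936, 4196 and 4318 in 5-FU WT and 1252, 1624 and 1951 in 5-FU KO (-1.30, adjusted p = 0.042); its call was lost with A3 and D4 averaged (adjusted p = 0.0801) and in all fits without 1 library (adjusted p up to 0.123) except those without untreated WT D2, untreated WT D3, 5-FU WT A2 or 5-FU KO A8.

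Of 20 genes linked to FoxO factors and quiescence, 4 were called lower and 0 higher by limma: Txnip, Ypel3, Cited2 and Pik3ip1. Ypel3, a growth-restraining gene, was at 1207 to 2178 in untreated libraries, 1956, 2331, 3832 and 2962 in 5-FU WT and 175, 224 and 186 in 5-FU KO, with an interaction of -2.21 ± 0.29 (SE), adjusted p = 0.0012. Cited2, a transcriptional coregulator required by HSCs, had an interaction of -1.40, adjusted p = 0.0189, a call lost without untreated KO D4, 5-FU KO A5 or 5-FU KO A6 (adjusted p up to 0.0587). Pik3ip1, an inhibitor of PI3K, was at 146, 399 and 385 in 5-FU KO, below all others (-1.21, adjusted p = 0.0424), a call lost with A3 and D4 averaged (adjusted p = 0.0738) and in all fits without 1 library (adjusted p up to 0.118) except those without untreated WT D3, untreated KO D5 or 5-FU WT A2. The median of the list was -0.33. It was -0.53 without untreated WT D1, -0.05 without untreated WT D2, -0.22 without 5-FU WT A4, -0.21 without 5-FU KO A8 and -0.08 by limma-voom.

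Growth and biosynthesis genes had positive medians with few single calls. DNA replication and G1/S genes had a median interaction of 0.53, the highest of the 30 pathway lists on the deposited scale. Of the 51 genes, 43 were positive, against 6329 of all 12846 genes tested. In the list 2 were called higher, the chromatin remodeller Hells and the fork protection factor Tipin. By limma-voom the median of the replication list was 0.69, below that of the ERK targets and feedback inhibitors. Hells was at 868, 504, 710.4 and 494 in 5-FU WT and 2518, 2453 and 2473 in 5-FU KO, with the untreated WT libraries at 634 to 1025 and the untreated KO libraries at 1258 to 1428 (1.01, adjusted p = 0.0468). Tipin was at 4868, 4931, 4257 and 4863 in 5-FU WT and 7718, 8474 and 8194 in 5-FU KO (1.03, adjusted p = 0.0307). Both had 5-FU KO libraries above all others. Hells lost its call with A3 and D4 averaged (adjusted p = 0.0941) and in all fits without 1 library (adjusted p up to 0.115) except those without untreated WT D1 or 5-FU WT A2. Tipin lost its call in all fits without 1 library (adjusted p up to 0.0912) except those without untreated WT D2, untreated WT D3, untreated KO D5 or 5-FU WT A2. By limma-voom Hells was not called (adjusted p = 0.0621). Ccne1, the S-phase cyclin E1, did not pass (1.51, adjusted p = 0.0558).

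Mitosis and G2/M genes went against that order. Of 50 tested, 28 rose in WT and 12 in KO, with median responses of 0.99 and 0.69. The median interaction was -0.31, and limma called 0, with 12 at an unadjusted p under 0.05 and 1 called by limma-voom. Without untreated WT D3 the median was -0.01, and without each of the other libraries it was at or above -0.46.

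Ribosome biogenesis genes had a median of 0.38, and 3 of 52 were called higher. Npm1, the nucleolar chaperone nucleophosmin, was at 14767 to 18026 in all libraries outside 5-FU KO and 28174, 30260.1 and 29654 in 5-FU KO, without overlap; its interaction was 0.91 ± 0.15 (SE), adjusted p = 0.006, and it was called in each fit without 1 library. Mrto4, a 60S assembly factor, was at 554, 327, 351 and 329 in 5-FU WT and 1993, 2026 and 2139.8 in 5-FU KO (1.33 ± 0.28 (SE), adjusted p = 0.0166), a call lost without 5-FU KO A6 (adjusted p = 0.0518). Ncl, nucleolin, had an interaction of 0.68, adjusted p = 0.0358, a call lost with A3 and D4 averaged (adjusted p = 0.0635) and in all fits without 1 library (adjusted p up to 0.0893) except those without untreated WT D1, untreated KO D5 or 5-FU WT A2.

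Enzymes of pyrimidine and fluorouracil metabolism, which make and clear the nucleotides that 5-FU mimics, had a median of 0.36, with 2 of 25 called higher. Nme1, a nucleoside diphosphate kinase, was at 3525 to 5207 in untreated libraries, 3808, 2896, 3125 and 3264 in 5-FU WT and 8414, 7839 and 8420.1 in 5-FU KO (1.03 ± 0.19 (SE), adjusted p = 0.00945). Dut, the enzyme that removes dUTP, was at 7622, 4736, 4038 and 4703 in 5-FU WT and 10334, 11644 and 13201 in 5-FU KO (1.03 ± 0.26 (SE), adjusted p = 0.042), a call lost with A3 and D4 averaged (adjusted p = 0.0786) and in all fits without 1 library (adjusted p up to 0.101) except those without untreated WT D3 or 5-FU WT A2. Nme1 kept its call in every such fit.

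Of 73 oxidative phosphorylation genes, 10 rose in WT and 30 in KO (3.72% and 2.78% of all genes tested), and the median interaction was 0.25. Atp5g3, a subunit of ATP synthase (0.80, adjusted p = 0.0494), and Ndufa12, a subunit of complex I (0.78, adjusted p = 0.0495), were called higher, and their 5-FU KO libraries lay above all others. The call of Atp5g3 was lost with A3 and D4 averaged (adjusted p = 0.0729) and in all fits without 1 library (adjusted p up to 0.113) except those without untreated WT D1 or 5-FU WT A2. That of Ndufa12 was lost with A3 and D4 averaged (adjusted p = 0.0801) and in all fits without 1 library (adjusted p up to 0.112) except those without untreated KO D5 or 5-FU WT A2. Of 19 genes of glycolysis and gluconeogenesis, Fbp1 (3.49) and Pgam1, a phosphoglycerate mutase, were higher; Pgam1 fell in WT, with a KO response of 0.27, adjusted p = 0.376 (interaction 1.02 ± 0.22 (SE), adjusted p = 0.0197; call lost without 5-FU KO A6 or 5-FU KO A8 (adjusted p up to 0.0644)). Pkm, pyruvate kinase, did not pass by limma (0.74, adjusted p = 0.06) but was called by limma-voom (adjusted p = 0.0472).

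Cytosolic ribosomal protein genes leaned lower: 10 of 79 were called lower and 1, Rpl27, higher. A negative interaction was seen in 70 of the 79, against 6517 of all 12846 genes tested, and the median was -0.41. The call of Rpl27 (1.13, adjusted p = 0.0256) was lost with A3 and D4 averaged (adjusted p = 0.0513) and without untreated KO D4, untreated KO D6, 5-FU WT A3, 5-FU WT D4, 5-FU KO A6 or 5-FU KO A8 (adjusted p up to 0.0693). After 5-FU, 29 rose in the wild type and 2 in KO. Rps28 was at 4603, 5984 and 4253 in untreated WT, 7065, 7289 and 6552 in untreated KO, 13127, 10161, 12779 and 18864 in 5-FU WT and 7147, 7666 and 8269 in 5-FU KO (-1.25 ± 0.25 (SE), adjusted p = 0.0143). Rpl37a, at 17199, 12805, 16342 and 22127 in 5-FU WT and 8765, 10299.7 and 11318 in 5-FU KO (-1.16, adjusted p = 0.0151), was also called in every fit without 1 library. With A3 and D4 averaged 16 were called lower, and without 5-FU KO A5 3 were. The highest values of Rps28 and Rpl37a were in 5-FU WT D4, and D4 differed there from its near copy A3. Many of these genes have near-identical processed copies in the genome, so their counts are uncertain.

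Genes of class I antigen presentation held 3 lower calls. Of 14 tested, H2-T23, H2-K1 and H2-D1 were called lower and 0 higher, with a median interaction of -0.54; the KO response called 9 lower and the WT response 3. H2-T23, which encodes the non-classical molecule Qa-1, was at 8514 to 12685 in the 10 other libraries and 3577, 3603 and 4663 in 5-FU KO (-1.32 ± 0.22 (SE), adjusted p = 0.00634). H2-K1 was at 33559 to 45032 outside 5-FU KO and 20298, 19907 and 23333 in it (-0.90 ± 0.16 (SE), adjusted p = 0.00945). H2-D1 had an interaction of -0.81, adjusted p = 0.0468, a call lost with A3 and D4 averaged (adjusted p = 0.0755) and in all fits without 1 library (adjusted p up to 0.129) except those without untreated WT D3 or 5-FU WT A2. These class I genes are close in sequence, and reads could have been divided between them.

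Of 10 class II genes, 6 fell in WT and 7 in KO, and the median interaction was -0.04. H2-Ob, a chain of the peptide-loading modulator H2-O, was the only one called (-1.47, adjusted p = 0.0311), a call lost with A3 and D4 averaged (adjusted p = 0.0645) and in all fits without 1 library (adjusted p up to 0.0889) except those without untreated WT D1, untreated WT D3, untreated KO D4, 5-FU WT A2 or 5-FU KO A6. By limma-voom H2-Ob was not called (adjusted p = 0.062). H2-DMa (-0.62, adjusted p = 0.121) and Ciita, the class II activator (-0.75, adjusted p = 0.213), did not pass.

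Interferon response genes had a median of -0.31, with 2 of 47 called lower; without untreated WT D2 the median was -0.19. Mx2, an antiviral GTPase whose gene is annotated as a polymorphic pseudogene, was at 0, 1.16 and 14.8 in untreated WT, 74.6, 364 and 129 in untreated KO, 76.4, 294, 27.6 and 171 in 5-FU WT and 0, 1.18 and 0 in 5-FU KO, with untreated KO and 5-FU WT above the other groups without overlap (-2.02 ± 0.37 (SE), adjusted p = 0.00945). Oas1a, a sensor of double-stranded RNA, had an interaction of -1.09, adjusted p = 0.0275, a call lost with A3 and D4 averaged (adjusted p = 0.0583) and in all fits without 1 library (adjusted p up to 0.0898) except those without untreated WT D2, untreated WT D3, untreated KO D6, 5-FU WT A2, 5-FU WT A4 or 5-FU KO A8. Rtp4 did not pass (-1.12, adjusted p = 0.0825).

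Signalling and stress lists each held few called genes. Nfkbia, the NF-kB inhibitor IkB alpha, was at 2909 to 5201 outside 5-FU KO and 1516, 1362 and 2254 in 5-FU KO (-1.45 ± 0.27 (SE), adjusted p = 0.0106), while Rel, an NF-kB subunit, was higher (1.47, adjusted p = 0.0167; call lost without 5-FU KO A6 (adjusted p = 0.0523)). Ddit3, the stress factor CHOP, was at 499 to 682 in untreated libraries, 751, 1184, 821 and 1209.5 in 5-FU WT and 161, 105 and 254 in 5-FU KO (-1.48 ± 0.30 (SE), adjusted p = 0.0151; call lost without 5-FU KO A6 (adjusted p = 0.0523)). Phgdh, the first enzyme of serine synthesis, fell in WT, with a KO response of -0.01 (adjusted p = 0.992): 4034, 3979, 2134 and 3476 in 5-FU WT and 9599, 10708 and 12453 in 5-FU KO (1.24 ± 0.28 (SE), adjusted p = 0.027; call lost without untreated WT D2, untreated KO D4, untreated KO D5, untreated KO D6, 5-FU KO A6 or 5-FU KO A8 (adjusted p up to 0.0697)). Id1, a BMP-induced inhibitor of basic helix-loop-helix factors, was at 0.818 to 338 outside 5-FU KO and 1025, 1271 and 1326 in 5-FU KO (1.87 ± 0.43 (SE), adjusted p = 0.0288; call lost with A3 and D4 averaged (adjusted p = 0.056) and in all fits without 1 library (adjusted p up to 0.0839) except those without untreated WT D1, untreated KO D4, untreated KO D6, 5-FU WT A2 or 5-FU WT A4). By limma-voom Id1 was not called (adjusted p = 0.154). The peroxidase Prdx1 was higher (0.73, adjusted p = 0.0303), a call lost in all fits without 1 library (adjusted p up to 0.078) except those without untreated WT D1, untreated WT D2 or 5-FU WT A2.

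Of these lists' other leading members, Mthfd2, a mitochondrial folate enzyme, was at 207, 335, 301 and 273 in 5-FU WT and 1092, 1014 and 1355 in 5-FU KO and did not pass (1.07, adjusted p = 0.0918). Neither did thioredoxin, Txn1 (0.69, adjusted p = 0.0567), the quinone reductase Nqo1 (-1.30, adjusted p = 0.0563), the TGF-beta coreceptor Eng (-1.21, adjusted p = 0.0594), the BMP receptor Acvr1 (0.85, adjusted p = 0.12) or the IkB kinase subunit Ikbkb (-1.09, adjusted p = 0.118). Sdhd, a subunit of succinate dehydrogenase (0.64, adjusted p = 0.0542), and the homing receptor S1pr1 (-0.82, adjusted p = 0.229) did not pass either. Limma-voom called Sdhd (adjusted p = 0.0275), Txn1 (adjusted p = 0.0337) and Nqo1 (adjusted p = 0.0466), but not the others named here.

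Limma called 0 genes for the interaction in the lists of DNA repair and Fanconi genes (40 tested), p53 targets (25), the MYC and MAX network (11), PI3K, AKT and mTOR (26), sterol synthesis (23) and ER chaperones (19). Their median interactions lay between -0.28 and 0.27, and by limma-voom between -0.34 and 0.51. At an unadjusted p under 0.05 the lists held, in that order, 5, 1, 1, 4, 4 and 3 genes, and limma-voom called 0, 0, 0, 0, 0 and 1. The median standard error per gene was 0.329, the smallest interaction called was 0.60 in size, and 294 of the 365 called genes reached 2-fold.

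**Figure D4:**
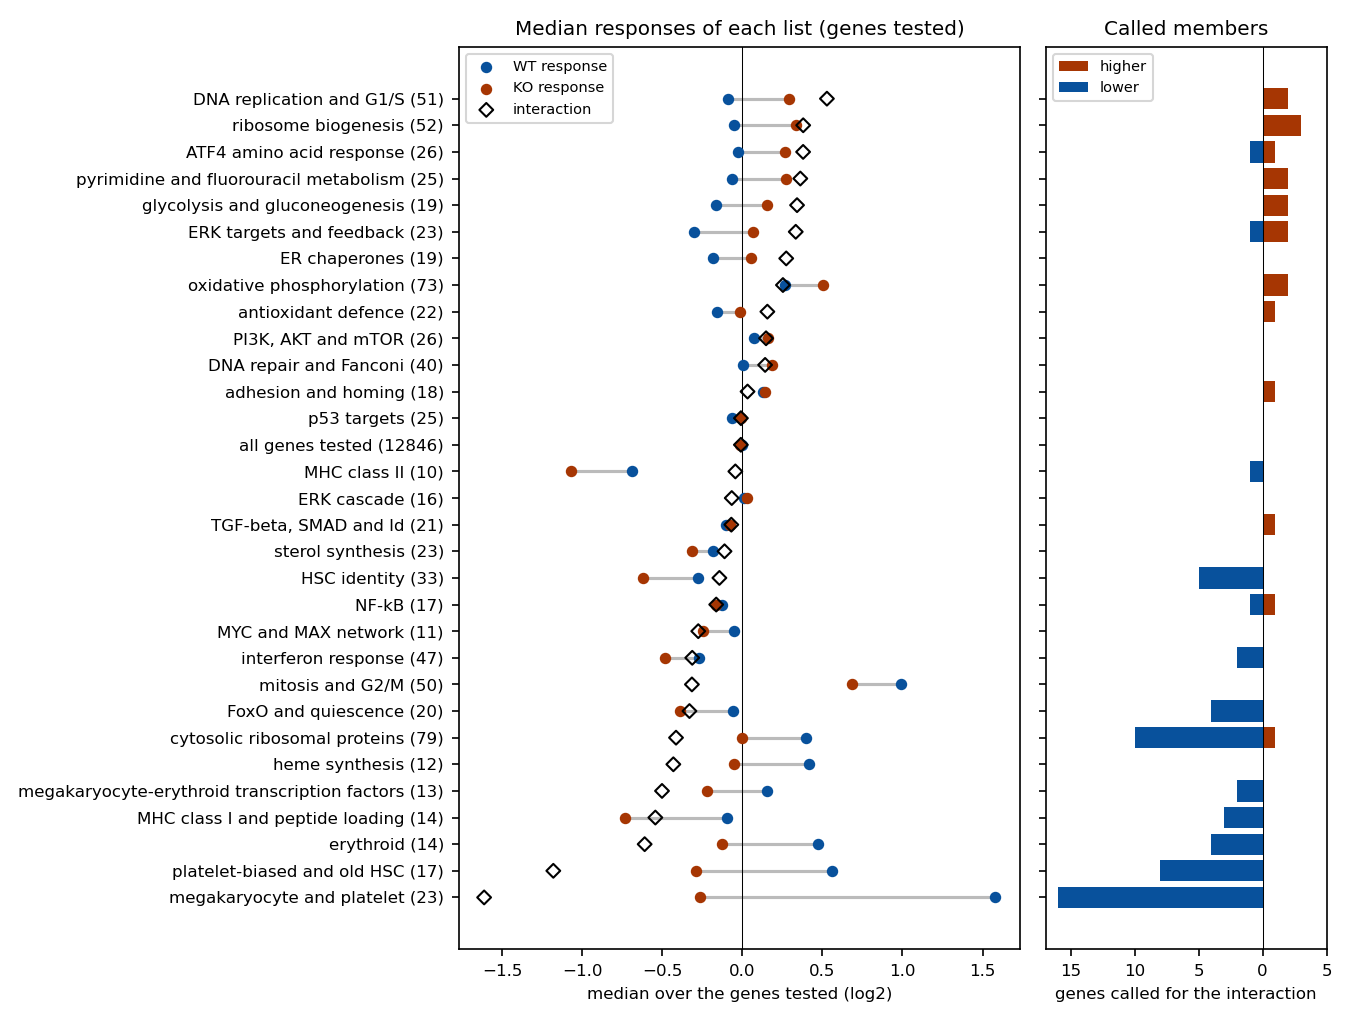
Left, median 5-FU response of WT (blue), of KO (brown) and median interaction (diamonds) on the log2 scale for each pathway list, with the number of genes tested in brackets; right, members called lower (blue, leftward) or higher (brown, rightward). Megakaryocyte and platelet genes lie at a median interaction of -1.61 with 16 members called lower, and replication genes lie at the other end at 0.53.

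Of the 12 named genes with the largest negative interactions, 3 were pseudogenes that differ by 1 base from an expressed gene, over 467 bases for Rps27a-ps2, 348 for Gm12191 and 483 for Gm29216, and their values depend on how reads were divided between the near-identical copies. The stretches around the base that separates each copy from its source are shown because it is the only difference over the aligned length; the capital marks that base, and the position is counted from 1 at the 5′ end of the transcript of the source gene. All are read from GENCODE M21 transcripts (GRCm38).
Gm29216 (chr1:24615706-24616197, minus strand), first bases of the part aligned to mt-Co1: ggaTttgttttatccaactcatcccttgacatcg
mt-Co1 (chrM:5328-6872, plus strand), A1066T: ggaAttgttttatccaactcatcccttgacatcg
Rps27a-ps2 (chr9:83409660-83410126, plus strand): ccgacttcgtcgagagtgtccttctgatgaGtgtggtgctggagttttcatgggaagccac
Rps27a (chr11:29545846-29548109, minus strand), A507G: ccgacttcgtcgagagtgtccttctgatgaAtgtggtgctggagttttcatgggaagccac
Gm12191 (chr11:49678710-49679057, minus strand): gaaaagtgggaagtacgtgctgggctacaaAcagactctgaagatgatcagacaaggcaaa
Rpl30 (chr15:34440505-34443640, minus strand), G273A: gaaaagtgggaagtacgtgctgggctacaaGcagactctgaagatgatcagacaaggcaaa

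Gm29216 was at 19512, 23612 and 29608 in untreated WT, 23739, 24440.1 and 12181 in untreated KO, 29728, 31018, 50296 and 41847 in 5-FU WT and 24.2, 20 and 139 in 5-FU KO. The 5-FU KO libraries held at most 139 and every other library at least 12181, and the interaction, -6.53 ± 0.36 (SE), adjusted p = 3.13e-08, was the largest of all named genes. mt-Co1, the mitochondrial gene it copies, averaged 344973 in untreated WT, 325383 in untreated KO, 335378 in 5-FU WT and 265481 in 5-FU KO. Gm29216 held 3.44% to 13.1% of the counts of the pair in the 10 other libraries and 0.00809% to 0.0534% in 5-FU KO. Rps27a-ps2, at 532, 375 and 2163 in 5-FU KO, held 1.25% to 7.10% of its pair there and 13.4% to 29.4% elsewhere (-2.71 ± 0.51 (SE), adjusted p = 0.0106). Gm12191, at 251, 401 and 650.4 in 5-FU KO, held 3.70% to 8.77% there and 28.9% to 55.3% elsewhere (-2.65 ± 0.43 (SE), adjusted p = 0.00522). The highest shares of Rps27a-ps2 (29.4%) and Gm12191 (55.3%) were in 5-FU WT D4. Its near copy A3, on a different flowcell, held 13.4% and 30.1%, so these shares varied widely between near-identical libraries. The 5-FU KO libraries did not overlap any other group in these 3 shares. The libraries 5-FU WT A2, A3 and A4 are on the same flowcell and of the same year as the 5-FU KO libraries, and their Gm29216 shares were 8.14% to 13.1%. In the same libraries the share of Rps27a-ps2 was 13.4% to 18.3% and that of Gm12191 30.1% to 39.2%. Of 677 pseudogenes tested, 12 were called, 7 lower and 5 higher, where 2.84% of all genes tested were called. Among the 61 that differ from a protein-coding transcript by 1 base over their aligned length, the median interaction was 0.06 and 4 were called lower. The sources used here do not give the strain of any group, and whether all groups carry the same base at these positions was not tested, nor was anything else that could set these shares.

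**Figure D5:**
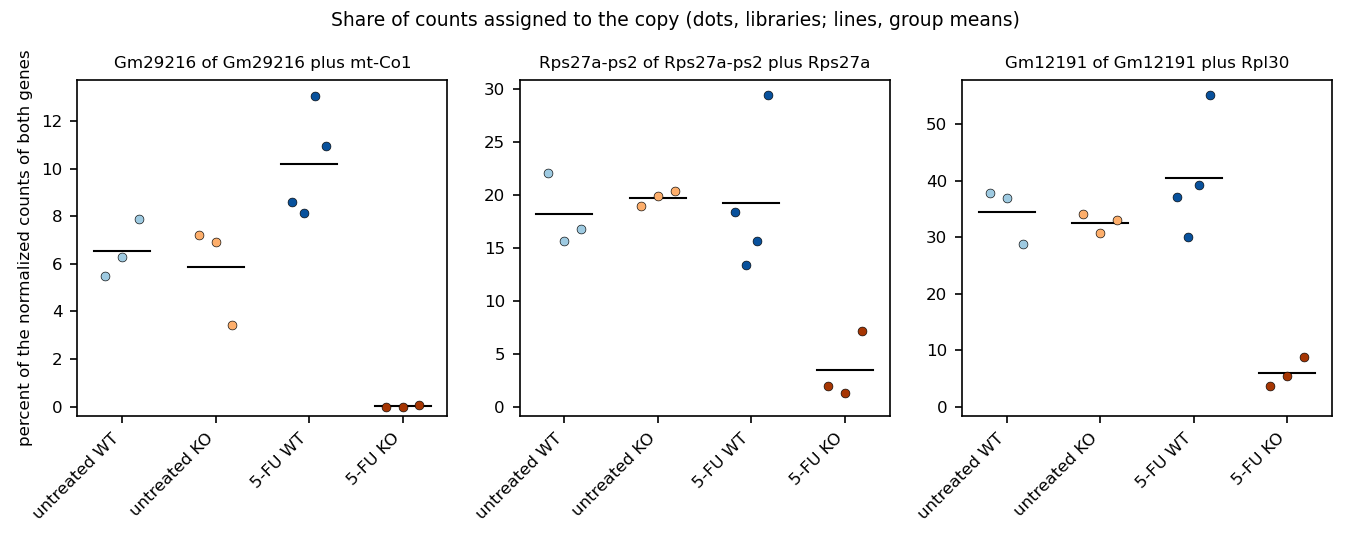
Percent of the normalized counts of a pseudogene and its source gene that were assigned to the pseudogene (vertical axis), by library (dots) and group mean (lines), for Gm29216 with mt-Co1, Rps27a-ps2 with Rps27a and Gm12191 with Rpl30. In each panel the 3 5-FU KO libraries lie below all others; for Gm29216 they are at most 0.0534%.

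Promoter windows of the interaction genes were read for 4 short strings. Windows from 250 bases before to 50 bases after the start were taken from RefSeq (GRCm38.p6, the first window listed per symbol) for 102 of 134 higher, 174 of 231 lower and 9505 of all 12846 genes. On either strand, AGATAA, 1 form of the site bound by GATA factors, was in 8.82% of higher, 9.77% of lower and 6.43% of all windows. Other forms, such as TGATAA, were not searched for. CCGGAAG, an ETS core, was in 20.6%, 10.3% and 19.1%. CACGTG, the E-box bound by MYC, was in 9.8%, 8.62% and 10.4%, and TATAAA, the TATA box, in 12.7%, 8.62% and 6.67%. No test was made of these shares, and a match is a stretch of letters, not a bound site; the ETS core stood in 18 lower and 21 higher windows. The windows of the strongest higher and lower named genes that have an entry are shown as the sequence context of those genes, with matches to the 4 strings in capitals.
Emb (chr13:117220323-117220622, plus strand), no match in this window: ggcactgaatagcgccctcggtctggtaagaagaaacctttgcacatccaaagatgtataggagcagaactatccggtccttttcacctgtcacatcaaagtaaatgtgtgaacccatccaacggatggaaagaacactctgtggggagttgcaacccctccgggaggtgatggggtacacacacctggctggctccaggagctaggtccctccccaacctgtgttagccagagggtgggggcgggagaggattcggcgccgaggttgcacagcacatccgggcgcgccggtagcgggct
Fbp1 (chr13:62888233-62888532, minus strand), 1 match, AGATAA: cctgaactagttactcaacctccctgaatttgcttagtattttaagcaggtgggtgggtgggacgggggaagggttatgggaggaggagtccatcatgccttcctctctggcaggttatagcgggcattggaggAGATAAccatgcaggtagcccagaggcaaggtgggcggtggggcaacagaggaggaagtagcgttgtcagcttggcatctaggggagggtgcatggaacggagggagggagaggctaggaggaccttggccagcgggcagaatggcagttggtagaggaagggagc
Clca3a1 (chr3:144760928-144761227, minus strand), no match in this window: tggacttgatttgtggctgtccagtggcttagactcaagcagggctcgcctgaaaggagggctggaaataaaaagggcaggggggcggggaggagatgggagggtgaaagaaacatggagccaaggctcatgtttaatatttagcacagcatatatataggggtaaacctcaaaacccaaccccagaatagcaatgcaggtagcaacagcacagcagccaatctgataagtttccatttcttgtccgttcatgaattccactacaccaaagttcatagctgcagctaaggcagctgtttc
F2rl2 (chr13:95696670-95696969, plus strand), 1 match, AGATAA: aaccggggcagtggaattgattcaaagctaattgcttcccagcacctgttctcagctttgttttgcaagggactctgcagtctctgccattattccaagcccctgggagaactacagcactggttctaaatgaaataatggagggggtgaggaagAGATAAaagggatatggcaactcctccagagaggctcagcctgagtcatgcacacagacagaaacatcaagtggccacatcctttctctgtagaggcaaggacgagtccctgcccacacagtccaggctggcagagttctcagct
The AGATAA matches began 116 bases before the start of Fbp1, which fell in WT, and 95 bases before that of F2rl2, which rose in WT, so the same letters stood in promoters of genes that moved in opposite directions.

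Other genes with large negative interactions belonged to no list. Ackr1, the atypical chemokine receptor known as the Duffy antigen, was at 5.55, 189.8 and 155 in untreated WT, 68.2, 211 and 129 in untreated KO, 1510.1, 1743, 2125 and 1574 in 5-FU WT and 65.8, 81.4 and 109 in 5-FU KO (-2.65 ± 0.38 (SE), adjusted p = 0.00183). Ces2g, a carboxylesterase, was at 2885, 3742, 5392 and 3191 in 5-FU WT and 1063, 817 and 1011 in 5-FU KO, from 237 to 727 in untreated WT and 759.6 to 1409 in untreated KO (-2.54 ± 0.36 (SE), adjusted p = 0.00166). Both were high in 5-FU WT, without overlap. Xlr3b, a member of an X-linked family of near-identical genes, was at 1.96, 469 and 0 in untreated WT, 1456, 159 and 918 in untreated KO, 542, 226, 853 and 266 in 5-FU WT and 55.1, 0 and 84.6 in 5-FU KO. It varied widely within groups, and its call (-2.97 ± 0.70 (SE), adjusted p = 0.0307) was lost in all fits without 1 library (adjusted p up to 0.0968) except those without untreated WT D2, untreated KO D5, 5-FU WT A2, 5-FU WT A3, 5-FU WT D4 or 5-FU KO A8. Xlr3b was not called by limma-voom (adjusted p = 0.0882), and its counts are uncertain because of its copies.

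Markers of other blood cells moved along with the interaction in part. Summed over 8 neutrophil markers in the table, normalized counts were 4506 to 5255 in untreated WT, 4611 to 4956 in untreated KO, 4101 to 5887 in 5-FU WT and 2250 to 2404 in 5-FU KO; most of each sum was Prtn3, with means of 4612, 4400.0, 4033 and 2271 in the same order (-0.66, adjusted p = 0.0803). S100a8 was called lower (-2.05, adjusted p = 0.008). Over 7 monocyte and macrophage markers the sums were 17800 to 21486, 16008 to 17997, 15044 to 18597 and 8661 to 9639, with Lyz2 called lower (-0.75, adjusted p = 0.0256; call lost without untreated KO D4, untreated KO D6, 5-FU KO A5 or 5-FU KO A6 (adjusted p up to 0.0768)) and C1qc higher (1.36, adjusted p = 0.0197; call lost without 5-FU KO A5 or 5-FU KO A8 (adjusted p up to 0.0573)). Lyz2 made up most of these sums, with means of 18268, 16479.8, 15981 and 8447 in that order. The sum goes against most members: 5 of the 7 had a positive interaction, with a median of 0.87, or 6.20 by limma-voom. Mast cell and basophil markers summed to 1385, 172 and 217 in untreated WT and 291 to 335 in untreated KO. After 5-FU they summed to 1875 to 2354 in WT and 285 to 824 in KO. Of the 4 tested, Fcer1a was called lower (-2.10, adjusted p = 0.00907), and the median interaction was -0.25. Cpa3 was also negative (-0.81), while Gzmb (0.31) and Hdc (0.55) were positive. The lists of B cell, T and NK cell, lymphoid progenitor, and stroma and endothelium markers held 0 genes called by limma, with 5, 3, 1 and 3 tested, 1, 1, 0 and 1 at an unadjusted p under 0.05, and 0, 0, 0 and 0 called by limma-voom. The B cell sum was lowest in 5-FU KO, at 580.5 to 846 against 906 to 2328 elsewhere, and most of it was Cd79b, with a mean of 648 in 5-FU KO and 1378 to 1572 in the other groups (-0.70, adjusted p = 0.317). The T and NK sum was highest in 5-FU WT, at 5770 to 6835 against 1618 to 4458 elsewhere. Nkg7 carried it, with a mean of 6289 in 5-FU WT and 2216 to 3127 in the other groups, while Cd4 and Klrb1c averaged 0 and 77.7 in 5-FU WT and 28.2 and 100.2 in untreated WT. The B cell markers Cd79a and Pax5 and the T cell markers Cd3d, Cd3e and Cd3g have no row in the table analysed here, and no marker with a row was at 0 in all libraries. Over the 8 HSC sorting markers the sums were 17574 to 21006, 14940 to 15854, 12035 to 16141 and 9249 to 10522 in the 4 groups. Their interactions were split, 4 negative and 4 positive, with a median of 0.02, and only Slamf1 (-1.30) was called. Kit was at -1.06, while Procr was at 1.29, Cd48 at 1.04 and Cd34 at 0.49. Cd48 averaged 251 in untreated WT and 629 in 5-FU WT, and 143 in untreated KO and 1303 in 5-FU KO. Its interaction was not called (limma adjusted p = 0.432). The part of these shifts in the results above was not tested.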

How the data were processed

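The deposited table holds log2-scale values per gene for 13 libraries. Per the submitters' processing notes, the authors' tools were Trimmomatic, Bowtie 1.1.1 and DESeq2, with mm10; how reads were counted, with which annotation and strand setting, is not given in the sources used here. The values had the form of a variance-stabilizing transformation with 7.6484 at a count of 0, and inverting it gave whole reads, within 0.1 of a read, for 100.0% of genes in every library; normalized counts in the text come from that inversion. Library totals were 11416753 to 45384866 reads. The 95% intervals are confidence intervals of the interaction. They come from its limma standard error, which rests on the spread between libraries within groups.

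A mean for each of the 4 groups was fitted to the deposited log2 values with limma 3.58.1 (R 4.3.3; mean-variance trend in the empirical Bayes step), over 12846 genes that reached a normalized count of 10 in at least 3 libraries. The contrast was (5-FU KO minus untreated KO) minus (5-FU WT minus untreated WT), p-values were Benjamini-Hochberg adjusted over all tested genes, and the threshold was 0.05. The script was tested on simulated data.

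Named are the 12 genes per direction with the largest change among those called also with A3 and D4 averaged, where the group with the highest mean reached a count of 50, the 5 with opposite called responses and the smallest p, the 3 members with the smallest p in each pathway list that held a called gene, and the ERK cascade genes Map2k1, Map2k2 and Mapk3; a few genes that met these rules are not reported here. Called members of lists that are named beyond this were chosen after their values were seen. The genes and lists were chosen with earlier results of these data known. Symbols, positions and transcripts are from GENCODE M21 (GRCm38); pseudogenes were aligned to protein-coding transcripts with BLAST+ 2.17.0 over at least 90% of their length. Alternatives averaged A3 and D4, left out each library, kept 1 flowcell, changed the minimum, the scale, the normalization and the weights, and used limma-voom on recovered reads.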

Additional observations from a re-analysis of the deposited data

Results flagged for a closer look

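The 5-FU responses of the 2 genotypes differed by limma, with the KO response above the WT response on the log2 scale, in Gem (4.25), Emb (3.63), Fbp1 (3.49), Lcp1 (2.19), Apobr (2.03), Siah2 (1.73), Selenot (1.69), Gm16580 (1.64), Podxl (1.61), Ranbp1 (1.55), Anxa1 (1.54) and Myo1h (1.52). The same test called, among cell cycle, ribosome assembly and metabolic genes with a higher KO response, Tipin (1.03), Hells (1.01), Npm1 (0.91), Mrto4 (1.33), Ncl (0.68), Atp5g3 (0.80), Ndufa12 (0.78), Nme1 (1.03), Dut (1.03), Pgam1 (1.02) and Phgdh (1.24). It also called, among signalling and redox genes with a higher KO response, Spred1 (1.49), Etv4 (0.69), Id1 (1.87), Rel (1.47) and Prdx1 (0.73). The KO response lay below the WT response in the platelet and red cell genes F2rl2 (-3.15), Pf4 (-3.07), Mfsd2b (-2.97), Rhag (-2.86), Gp1bb (-2.39), Plek (-2.53), Aqp1 (-1.94), Klf1 (-2.25) and Fli1 (-1.22). It lay below in Cavin2 (-2.51) and Selp (-2.19), which are in the lists of platelet genes and of platelet-biased and aged HSCs. It also lay below in the stem cell and quiescence genes Txnip (-1.56), Pdzk1ip1 (-1.56), Ypel3 (-2.21) and Cited2 (-1.40). Genes of antigen presentation, interferon response and stress with a lower KO response were Mx2 (-2.02), Oas1a (-1.09), H2-Ob (-1.47), H2-T23 (-1.32), H2-K1 (-0.90), H2-D1 (-0.81), Ddit3 (-1.48), Nfkbia (-1.45) and Ier3 (-1.33). Among ribosomal protein genes and pseudogenes these were Gm29216 (-6.53), Rps27a-ps2 (-2.71), Gm12191 (-2.65), Rps28 (-1.25) and Rpl37a (-1.16). The remaining genes with a lower KO response were Clca3a1 (-3.72), Xlr3b (-2.97), Apoe (-2.81), Ackr1 (-2.65), Ces2g (-2.54), Ctla2a (-1.53) and Glul (-1.54).

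In 8 of the 81 named genes, 1 library of the 5-FU WT group lay far from the other 3, by its gap to the nearest divided by the range of the group, where chance alone would single out about 1 in 20 groups. That group holds the near copies A3 and D4, which leaves fewer independent values to compare. The library was 5-FU WT A2, with its normalized count, in Emb (859.8), Fbp1 (206), Ier3 (1878), Nfe2 (6827), Cavin2 (1603), Mrto4 (554) and Cited2 (1632). It was 5-FU WT A4 in Tipin (4257). On the normalized counts A2 also stood apart in Gem (2013, at most 83.7 in the other 5-FU WT libraries) and Spred1 (768, at most 377). These genes are not among the 8, and the scale on which the gap was taken is not stated here.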

How the results depend on the processing

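Against 365 called genes (134 higher, 231 lower), averaging 5-FU WT A3 and D4 gave 237 (79 and 158), 1 flowcell gave 149 (50 and 99), and library weights gave 864 (367 and 497). Without 1 library the counts ranged from 140 to 476 in all, 45 to 187 higher and 95 to 289 lower. Higher calls numbered 80 without the mean-variance trend and 88 at 2-fold or more. The cause of these differences was not tested, except that leaving out libraries lowers the number of samples. Counts stayed within 1.5 times with a minimum of 50 (376), no minimum (355), quantile normalization (383), log2 of the normalized count plus 1 (303), robust moderation (364), limma-voom (338) and protein-coding genes only (356, chosen after seeing the data). No gene that was named by the rule and called for the interaction reversed its direction in any of these fits. Of the uncalled cascade genes, Map2k1 was at 0.06 on 1 flowcell, Map2k2 at -0.07 without untreated WT D3, -0.08 without 5-FU WT A2 and -0.13 with library weights, and Mapk3 at -0.19 without untreated KO D5, each of opposite sign to its value with every library. Of 81 named genes, the fit without 5-FU KO A6 ended 24 calls, that on 1 flowcell 23, the averaged pair 11 and limma-voom 9. Limma-voom also called 5 named genes that limma did not: Nfe2, Pkm, Sdhd, Txn1 and Nqo1.

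No paired analysis was possible because the library names are not shared as numbers across the 4 groups and nothing in the labels says that a name marks a common animal, litter or day. Each group holds 3 or 4 libraries of 100 cells, of which A3 and D4 are near copies, so an interaction had a median standard error of 0.329. Acquisition year and treatment cannot be told apart in KO. For genes at low counts, where 3 reads correspond to 0.979 to 4.35 normalized counts, the log2 difference is compressed.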
